A study of Mus musculus with 9 samples.

Results

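Normal mammary fibroblasts were compared alone and beside 4T1-GFP carcinoma cells for genes of sterol and fatty acid synthesis and of their control by sterol regulatory element-binding proteins (SREBPs). The genes were taken by name: 37 genes of these pathways were listed, 35 of them were in the deposited table of 11931 genes, and all 35 were among the 10639 genes tested, which reached 5 normalised reads in 3 or more of 9 libraries. Idi1 and Fdft1 are not analysed here. The fibroblasts came from the mammary fat pad of female BALB/c mice aged 12 weeks, recovered for 1 week on collagen, and were plated in medium with serum. In all 3 groups the cells were sorted as GFP-negative, PDPN-positive cells, PDPN being a surface glycoprotein of fibroblasts. The monoculture group held fibroblasts kept alone for 5 days, and the other groups held fibroblasts kept with 4T1-GFP cells, a mouse mammary carcinoma line that carries green fluorescent protein, for 3 or 5 days. There were 3 libraries of 3′ end mRNA in each group. No monoculture was sampled at 3 days, so co-culture and days in culture cannot be told apart in the comparison of the 3-day co-culture with monoculture. Between the co-cultures, time beside 4T1 cells and days in culture cannot be told apart either.

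SREBPs are transcription factors made as membrane proteins of the endoplasmic reticulum. When sterol is plentiful, the escort protein SCAP and its anchors INSIG1 and INSIG2 hold them there; when sterol falls, SCAP carries them to the Golgi, where proteases free the part that enters the nucleus. SREBP2, the product of Srebf2, acts mainly on genes of cholesterol synthesis and uptake, and SREBP1, the product of Srebf1, mainly on genes of fatty acid synthesis and desaturation. Oxysterols act in the other direction through the LXR receptors, which raise cholesterol efflux genes such as Abca1, and Srebf1 itself.

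After 5 days with carcinoma cells most sterol synthesis genes were higher than in monoculture, and after 3 days few were. Of the 35 genes, 18 were higher and 2 lower at 5 days against monoculture (limma, Benjamini-Hochberg adjusted p under 0.05 over all genes tested), where 12.6% and 11.4% of all tested genes were called higher and lower. Their median log2 fold change was 0.74, beside -0.01 over all tested genes. Against the same monocultures, 5 were higher and 2 lower at 3 days, beside 10.6% and 9.37% of all tested genes, and the median was 0.11, beside 0.00. Between the co-cultures, 13 were higher at 5 days than at 3 days and 0 were lower, beside 3.20% and 3.71% of all tested genes, and the median was 0.66, beside -0.01. At an unadjusted limma p under 0.05, 1 was lower in that comparison, and edgeR and DESeq2 each called 11 higher and 0 lower. The 13 became 5 without 3-day replicate 2 or without 5-day replicate 1 and 7 without 5-day replicate 2 or 3, and the 2 lower at 3 days became 1 without monoculture replicate 1 or 3 or 3-day replicate 2 or 3. In all, 23 of the 35 genes were called in at least 1 comparison and 12 in none. The shares of all tested genes given here are also the background for the smaller groups and lists below. Fold changes are differences of log2(value + 1), where value is the deposited normalised read count, and understate the change of low genes. Both comparisons with monoculture use the same 3 monoculture libraries, and the comparisons that include the 3-day libraries share those.

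**Figure D1:**
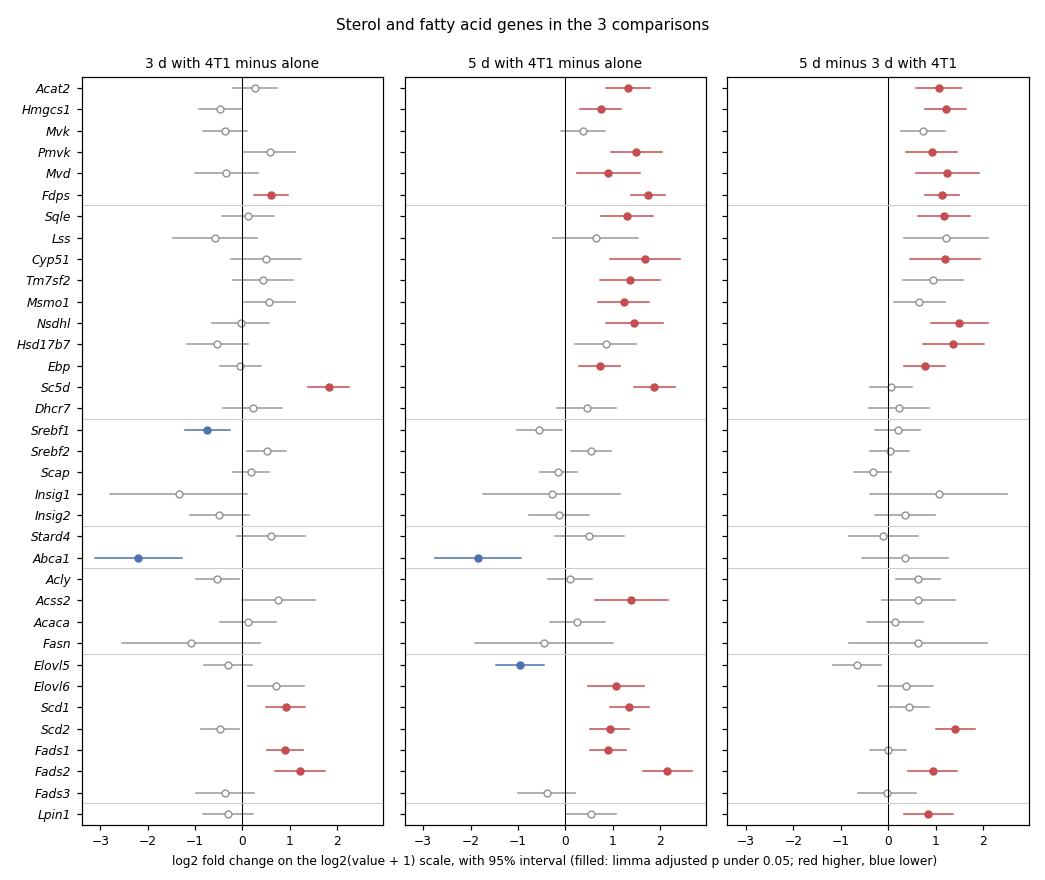
The horizontal axis gives the log2 fold change on the log2(value + 1) scale with its 95% interval for each of the 35 genes, in rows ordered by role, for the 3-day co-culture minus monoculture, the 5-day co-culture minus monoculture, and the 5-day minus the 3-day co-culture. Filled points passed limma at adjusted p under 0.05 (red higher, blue lower); 18 red points stand in the middle panel, 5 in the left and 13 in the right.

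The promoters of the called genes at both ends of the 5-day comparison are shown, since SREBPs and their partner factors can bind in promoters. Binding to the windows shown was not measured. Each sequence is 300 bases from the RefSeq promoter set (GRCm38.p6), from 250 bases before the transcription start to 50 after it, written 5′ to 3′ on the gene's strand. Fads2 and Sc5d had the largest positive fold changes and Abca1 and Elovl5 the most negative ones. Hmgcs1 was added after the search, as the promoter with a match to the sterol motif. Capitals mark matches to the letters TCACNCCAC (a form of the sterol regulatory element), CCAAT (the box bound by NF-Y, a partner of SREBPs; ATTGG on the other strand) or CACGTG (an E-box, which SREBPs also bind).
Fads2 promoter (chr19:10101454-10101753, minus strand): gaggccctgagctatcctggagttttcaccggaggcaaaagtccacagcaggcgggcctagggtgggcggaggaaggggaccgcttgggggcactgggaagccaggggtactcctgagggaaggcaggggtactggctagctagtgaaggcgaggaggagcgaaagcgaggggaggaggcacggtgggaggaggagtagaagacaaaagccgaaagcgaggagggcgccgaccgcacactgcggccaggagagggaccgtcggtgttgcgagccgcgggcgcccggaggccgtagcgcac
Sc5d promoter (chr9:42264251-42264550, minus strand): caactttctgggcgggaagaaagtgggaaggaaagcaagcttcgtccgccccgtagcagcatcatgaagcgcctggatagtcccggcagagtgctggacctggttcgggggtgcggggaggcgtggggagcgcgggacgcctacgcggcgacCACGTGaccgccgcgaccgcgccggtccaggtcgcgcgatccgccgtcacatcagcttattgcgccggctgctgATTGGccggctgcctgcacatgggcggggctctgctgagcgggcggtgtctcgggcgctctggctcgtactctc
Hmgcs1 promoter (chr13:119690101-119690400, plus strand): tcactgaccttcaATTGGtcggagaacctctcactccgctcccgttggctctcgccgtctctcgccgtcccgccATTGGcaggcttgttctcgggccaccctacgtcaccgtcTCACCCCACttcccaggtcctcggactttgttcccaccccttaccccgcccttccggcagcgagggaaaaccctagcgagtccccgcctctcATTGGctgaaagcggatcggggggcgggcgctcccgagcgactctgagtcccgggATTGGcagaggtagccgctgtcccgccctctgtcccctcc
Abca1 promoter (chr4:53159846-53160145, minus strand): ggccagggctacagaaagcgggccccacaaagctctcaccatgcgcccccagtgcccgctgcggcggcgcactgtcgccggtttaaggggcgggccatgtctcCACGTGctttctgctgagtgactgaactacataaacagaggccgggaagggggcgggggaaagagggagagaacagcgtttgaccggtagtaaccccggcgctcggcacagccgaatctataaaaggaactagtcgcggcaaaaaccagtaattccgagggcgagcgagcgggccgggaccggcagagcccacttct
Elovl5 promoter (chr9:77917115-77917414, plus strand): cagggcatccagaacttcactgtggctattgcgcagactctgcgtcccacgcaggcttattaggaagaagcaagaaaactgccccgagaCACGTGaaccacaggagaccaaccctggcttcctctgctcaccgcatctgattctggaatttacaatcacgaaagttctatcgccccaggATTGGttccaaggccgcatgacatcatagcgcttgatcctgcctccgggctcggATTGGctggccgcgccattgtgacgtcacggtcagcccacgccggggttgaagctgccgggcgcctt
The Fads2 window held 0 matches. The Sc5d window held CACGTG starting 98 bases before the start (position -98) and ATTGG at -24. The Hmgcs1 window held TCACCCCAC at -137 and ATTGG at -237, -176, -45 and 11. The Abca1 window held CACGTG at -147, and the Elovl5 window CACGTG at -161 and ATTGG at -71 and -17.

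Promoters were found for 29 of the 35 genes, as 37 windows. On either strand, CCAAT lay in 23 of these windows (62.2%), in 22 genes, beside 37.4% of the 32851 promoter windows of the same length. The palindrome CACGTG lay in 8 windows (21.6%), in 7 genes, beside 7.15%. TCACNCCAC lay in 1 window (2.7%), beside 1.24%. The 3 motifs share no overlapping letters in the windows shown. These are letter matches and no measure of binding.

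Reads recovered from the deposited values numbered 2623911 to 3567326 in the monocultures, 1048471 to 2579766 at 3 days and 1459381 to 1987168 at 5 days, so the monocultures were deeper. Nothing in the labels says that replicates were separate cultures or animals, so the p-values measure the spread between these libraries, which may be technical. All 10 fibroblast markers were present in every group, but their levels changed: limma called 5 lower and 1 higher at 5 days against monoculture, 4 lower at 3 days, and 3 lower and 1 higher at 5 against 3 days. Pdgfra, Col3a1, Thy1, Dcn and Pdgfrb fell at 5 days against monoculture (log2 fold changes -3.08, -1.89, -1.47, -1.38 and -1.34), and all but Dcn also fell at 3 days. The 3 most abundant over all libraries were Col1a1 (15544.4 to 24211.3 in monoculture, 18080.6 to 26146.3 at 3 days, 15538.0 to 24642.5 at 5 days), Col1a2 (11025.8 to 12990.8, 12029.0 to 14358.0 and 9377.5 to 12052.1) and Vim (4859.2 to 5496.6, 4555.4 to 4954.3 and 8870.1 to 12833.0), and Vim rose at 5 days against both other groups (log2 fold changes 1.07 and 1.19). Epithelial and carcinoma markers were higher in co-culture: of 13 tested, 12 were called higher in each comparison with monoculture, all 13 estimates were positive, and the sum of the 14 present was 54.9 to 82.8 in the monocultures, 1114.6 to 1275.7 at 3 days and 1100.1 to 1531.7 at 5 days. Cldn3 and Elf3 were at 0 in all monocultures, and Epcam reached 0.5 and Cdh1 0.6 there. By mean over all 9 libraries the most abundant were Wfdc2 (0.6 to 7.2 in monoculture, 233.9 to 374.3 at 3 days, 416.3 to 479.4 at 5 days), Krt18 (13.6 to 48.8, 178.2 to 226.8 and 225.4 to 358.3) and Lcn2 (2.9 to 8.4, 222.5 to 336.9 and 69.9 to 119.8). The part of the fibroblast and epithelial markers in the results below was not tested, and in bulk samples fewer cells of a type and less RNA per cell cannot be told apart. Between 3 and 5 days of co-culture the epithelial marker sums overlapped. Limma called 1 of the 13 epithelial markers, Lcn2, which was lower at 5 days (log2 fold change -1.42, limma adjusted p = 0.0151). Lcn2 is part of these sums, with means of 269.0 at 3 days and 101.0 at 5 days. The overlap of the sums therefore does not show that the other markers stayed level. Of the 13 estimates between the days, 7 were positive, and the median log2 difference was 0.07. Krt8, Krt19 and Wfdc2 had every 5-day library above every 3-day library, as in 11.7% of all tested genes. Their log2 differences were 0.72, 0.89 and 0.49 (limma adjusted p = 0.299, 0.0672 and 0.539). Besides Lcn2, the negative estimates were those of Cldn4 (-0.61), Cldn3 (-0.56), Spint2 (-0.32), Epcam (-0.13) and Spint1 (-0.10), which were not called. Only 1 of 8 listed adipocyte markers, Fabp4, was present. It was 93.5 to 145.2 in the monocultures, 5.0 to 22.3 at 3 days and 9.0 to 16.2 at 5 days. The 3 leukocyte markers present of 7 listed (Cd68, Lyz2 and Csf1r) summed to 70.1 to 230.3, 107.9 to 287.5 and 52.4 to 126.7. Lyz2 had the largest share, at 34.1 to 184.6, 61.4 to 231.8 and 35.0 to 84.8. The only endothelial marker present of 6 listed, Kdr, was at most 11.8.

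**Figure D2:**
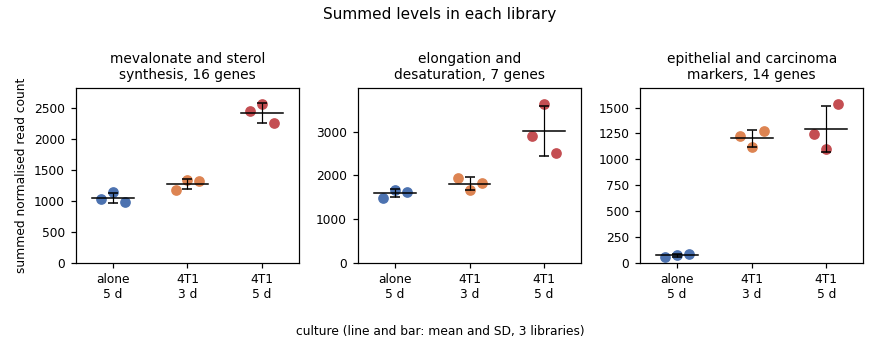
The vertical axes give the summed normalised read count in each library (points; line and bar are mean and SD of 3 libraries) for the 16 mevalonate and sterol synthesis genes, the 7 elongation and desaturation genes and the 14 epithelial and carcinoma markers, in monoculture and after 3 and 5 days with 4T1 cells. The sterol sum stood at 977.6 to 1141.7, 1177.3 to 1335.0 and 2255.9 to 2565.0, and the marker sum at 54.9 to 82.8, 1114.6 to 1275.7 and 1100.1 to 1531.7. The marker sum includes Lcn2, which fell from 3 to 5 days.

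The mevalonate pathway turns acetyl-CoA into the isoprenoid units from which sterols are built. Of its 6 genes, 5 were higher at 5 days than in monoculture, 5 were higher at 5 than at 3 days, and 1 was higher at 3 days than in monoculture. Fdps, farnesyl diphosphate synthase, had 178.9, 196.6 and 156.2 in monoculture, 303.9, 254.1 and 250.4 at day 3 of co-culture and 627.1, 614.7 and 545.6 at day 5. Its 3 groups did not overlap, and it was the only gene of the pathway called in all 3 comparisons: it rose at 5 days against monoculture (log2 fold change 1.75, SE 0.17, limma adjusted p = 1.55e-06, a 3.36-fold difference) and 5 against 3 days (log2 fold change 1.15, SE 0.17, limma adjusted p = 0.000786). It also rose at 3 days against monoculture (log2 fold change 0.60, SE 0.17, limma adjusted p = 0.0193), a call lost without monoculture replicate 3 or 3-day co-culture replicate 1 (adjusted p = 0.0596 to 0.0949). Fdps (chr3:89093588-89101959, mm10, minus strand) shares 1124 exon bases with Gm43738 on the same strand, so their reads may be mixed. Acat2, which joins acetyl-CoA units in the first step, had 42.7, 50 and 41.1 in monoculture, 41.5, 66.8 and 55.7 at day 3 of co-culture and 113.2, 122.0 and 104.9 at day 5. Every 5-day library was above both other groups, and Acat2 rose against monoculture (log2 fold change 1.33, SE 0.22, limma adjusted p = 0.000359) and against 3 days (log2 fold change 1.06, SE 0.22, limma adjusted p = 0.00857).

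Hmgcs1, the HMG-CoA synthase whose promoter held the sterol motif, had 256.8, 164.9 and 167.1 in monoculture, 119.6, 162.2 and 136.3 at day 3 of co-culture and 293.8, 309.2 and 368.3 at day 5. All 3-day libraries lay below and all 5-day libraries above the monocultures. It rose at 5 against 3 days (log2 fold change 1.22, SE 0.21, limma adjusted p = 0.00232) and at 5 days against monoculture (log2 fold change 0.74, SE 0.21, limma adjusted p = 0.0148); the latter call was lost without monoculture replicate 2 or 3 or 5-day co-culture replicate 3 (adjusted p = 0.0624 to 0.0721). At 3 days against monoculture its log2 fold change was -0.47 (95% interval -0.91 to -0.03, limma adjusted p = 0.123). Monoculture replicate 1 was the highest of its group. Hmgcs1 shares 557 exon bases with the antisense gene Gm48342, and the strand setting of the counting is not given in the sources used here.

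Of the kinases and the decarboxylase that follow, Pmvk, phosphomevalonate kinase, had 28.5, 39.9 and 30.9 in monoculture, 54.8, 63.3 and 34.8 at day 3 of co-culture and 108.7, 82.0 and 93.6 at day 5. Again every 5-day library was above the rest, while the 3-day group overlapped the monocultures. Pmvk rose at 5 days against monoculture (log2 fold change 1.50, SE 0.25, limma adjusted p = 0.000428) and against 3 days (log2 fold change 0.92, SE 0.25, limma adjusted p = 0.0404), the latter lost without 3-day co-culture replicate 1, 2 or 3 or 5-day co-culture replicate 1, 2 or 3 (adjusted p = 0.0506 to 0.14). Mvd, mevalonate diphosphate decarboxylase, had 55.1, 37.0 and 34.1 in monoculture, 46.5, 34.8 and 20.9 at day 3 of co-culture and 112.3, 60.5 and 69.9 at day 5. Its 5-day values were above all others, with replicate 1 the highest, and the 3-day group overlapped the monocultures. Mvd rose at 5 days against monoculture (log2 fold change 0.91, SE 0.31, limma adjusted p = 0.0449), lost without monoculture replicate 2 or 3 or 5-day co-culture replicate 1 or 3 (adjusted p = 0.0751 to 0.201), and against 3 days (log2 fold change 1.24, SE 0.31, limma adjusted p = 0.0257), lost without 3-day co-culture replicate 2 or 3 or 5-day co-culture replicate 1 or 3 (adjusted p = 0.0607 to 0.121). Mvk, mevalonate kinase, was not called in any comparison, with means of 62.3 ± 9.78 alone, 47.9 ± 3.81 at day 3 and 81.3 ± 15.0 at day 5 of co-culture (SD, n = 3). All its 3-day libraries were below the monocultures (log2 fold change -0.36, limma adjusted p = 0.268), and all its 5-day libraries were above the 3-day ones (0.74, limma adjusted p = 0.0538).

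**Figure D3:**
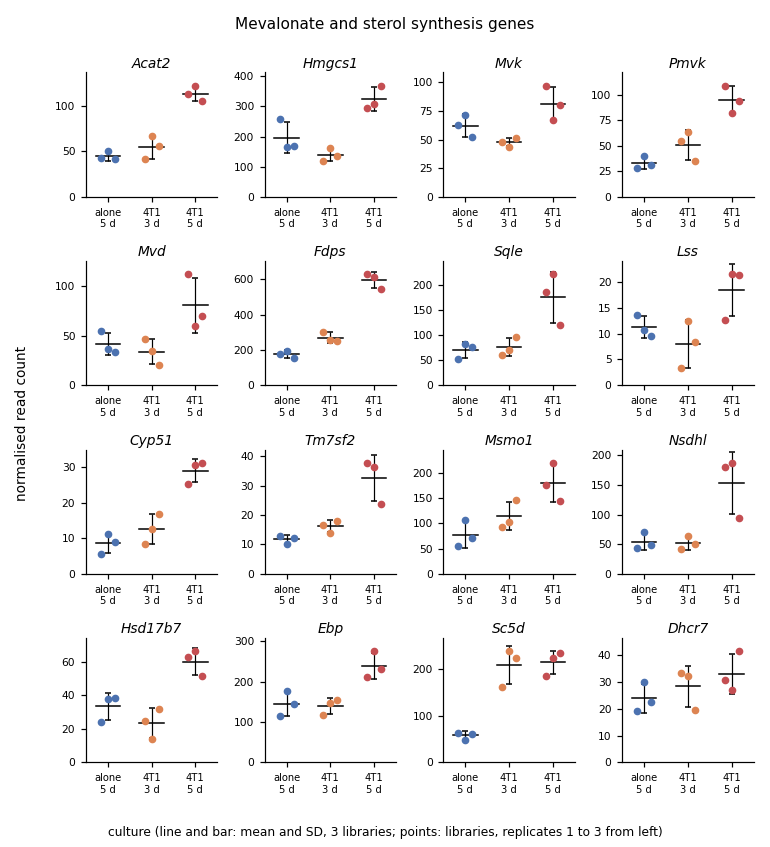
Each panel gives the normalised read count of 1 of the 16 mevalonate and sterol synthesis genes in the 9 libraries (points, replicates 1 to 3 from left), with the mean (line) and SD (bar) of the 3 libraries, for monoculture (blue), 3 days (orange) and 5 days (red) of co-culture. In Fdps the 5-day libraries sit between 545.6 and 627.1, above all others, and in Sc5d both co-culture groups sit between 162.7 and 238.8.

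The enzymes from squalene to cholesterol were the other large group. Of 10 genes, 7 were higher and 0 lower at 5 days against monoculture, 1 was higher and 0 lower at 3 days, and 5 were higher and 0 lower at 5 against 3 days. At an unadjusted limma p under 0.05, 8, 2 and 8 were higher and 0 lower; edgeR and DESeq2 each called 8, 1 and 4 higher and 0 lower. The group medians of the log2 fold change were 1.26, 0.17 and 1.06. Sc5d, the sterol desaturase of a late step, had 64.4, 47.6 and 62.3 in monoculture, 162.7, 238.8 and 225.4 at day 3 of co-culture and 186.9, 224.5 and 234.7 at day 5. Every co-culture library was above every monoculture, and the co-culture groups overlapped. Sc5d (chr9:42251595-42264256, minus strand) rose at 3 days (log2 fold change 1.82, SE 0.21, limma adjusted p = 1.26e-05, 3.54-fold) and at 5 days (log2 fold change 1.88, SE 0.21, limma adjusted p = 5.8e-06, 3.68-fold), and the log2 difference between the days was 0.06 (95% interval -0.38 to 0.49). Among the 10 genes it was the only one called at 3 days against monoculture. Whether its 3-day response differed from that of the other 9 genes was not tested.

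Sqle, squalene epoxidase, which adds an oxygen to squalene, had 52.0, 81.7 and 77.1 in monoculture, 61.4, 71.0 and 96.0 at day 3 of co-culture and 186.0, 221.7 and 121.1 at day 5. Values at 5 days lay above all others and the 3-day group overlapped the monocultures. Sqle rose at 5 days against monoculture (log2 fold change 1.30, SE 0.26, limma adjusted p = 0.00162) and against 3 days (log2 fold change 1.18, SE 0.26, limma adjusted p = 0.0115), the latter lost without 3-day co-culture replicate 2 or 5-day co-culture replicate 1 or 2 (adjusted p = 0.0522 to 0.062). Nsdhl, a dehydrogenase that removes carbon from the sterol ring, had 43.3, 70.2 and 48.2 in monoculture, 41.5, 64.7 and 50.1 at day 3 of co-culture and 179.7, 187.2 and 93.6 at day 5. Replicate 3 was the lowest of the 5-day libraries, and all 3 were above every other library. Nsdhl rose at 5 days against monoculture (log2 fold change 1.46, SE 0.28, limma adjusted p = 0.00128) and against 3 days (log2 fold change 1.50, SE 0.28, limma adjusted p = 0.00453). At 3 days its log2 fold change against monoculture was -0.04 (95% interval -0.64 to 0.56).

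Cyp51, the demethylase that acts on lanosterol, had 5.6, 11.1 and 9.0 in monoculture, 8.3, 12.5 and 16.7 at day 3 of co-culture and 25.2, 30.7 and 31.2 at day 5. It was low in all groups, but the 5-day values did not overlap the others. Cyp51 rose at 5 days against monoculture (log2 fold change 1.69, SE 0.35, limma adjusted p = 0.00215). Its rise at 5 against 3 days (log2 fold change 1.20, SE 0.35, limma adjusted p = 0.0496) lay at the threshold and was lost without 3-day co-culture replicate 1 or 2 or 5-day co-culture replicate 1, 2 or 3 (adjusted p = 0.0914 to 0.145), and with a pseudocount of 0.5 (adjusted p = 0.0552), no filter on low values (0.0571), edgeR (0.0532) and DESeq2 (0.078). Cyp51 shares 166 exon bases with Akap9 on the other strand; Akap9 was not called in any comparison. Ebp, a sterol isomerase, had 114.5, 176.4 and 145.3 in monoculture, 117.9, 146.9 and 154.4 at day 3 of co-culture and 211.1, 274.8 and 231.0 at day 5. Its 5-day libraries lay above all others, and Ebp rose against monoculture (log2 fold change 0.73, SE 0.20, limma adjusted p = 0.0153), lost without monoculture replicate 1 or 5-day co-culture replicate 2 (adjusted p = 0.0733 to 0.082), and against 3 days (log2 fold change 0.77, SE 0.20, limma adjusted p = 0.0312), lost without 3-day co-culture replicate 1 or 2 or 5-day co-culture replicate 1, 2 or 3 (adjusted p = 0.0522 to 0.122).

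Msmo1, the methylsterol oxidase, had 55.7, 106.7 and 71.3 in monoculture, 93.0, 103.7 and 146.1 at day 3 of co-culture and 176.1, 219.8 and 144.8 at day 5. The 5-day libraries were above the monocultures, and the 3-day group overlapped both. Msmo1 rose at 5 days against monoculture (log2 fold change 1.23, SE 0.25, limma adjusted p = 0.00216), with log2 fold changes of 0.57 at 3 days against monoculture and 0.66 at 5 against 3 days that were not called. Tm7sf2, a sterol reductase, had 13.0, 10.1 and 12.2 in monoculture, 16.6, 13.9 and 18.1 at day 3 of co-culture and 37.7, 36.3 and 23.7 at day 5. Its 3 groups did not overlap. It rose at 5 days against monoculture (log2 fold change 1.37, SE 0.30, limma adjusted p = 0.00312) and was not called at 3 days against monoculture (0.43, limma adjusted p = 0.341). Tm7sf2 shares 532 exon bases with Vps51 on the same strand, which was not called in any comparison.

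Hsd17b7, a reductase of sterol ketones, had 24.1, 37.5 and 38.6 in monoculture, 24.9, 13.9 and 32.0 at day 3 of co-culture and 62.9, 66.1 and 51.2 at day 5. All 5-day libraries were above all others. It rose at 5 against 3 days (log2 fold change 1.38, SE 0.31, limma adjusted p = 0.0123), lost without 3-day co-culture replicate 2 or 5-day co-culture replicate 1 or 2 (adjusted p = 0.0501 to 0.0701), and narrowly missed the threshold against monoculture (log2 fold change 0.85, limma adjusted p = 0.0536), where edgeR and DESeq2 called it higher. Lss, lanosterol synthase, had means of 11.3 ± 2.08 alone, 8.03 ± 4.61 at day 3 and 18.4 ± 5.02 at day 5 of co-culture (SD, n = 3), and Dhcr7, the reductase that makes cholesterol in one branch, had 23.8 ± 5.42 alone, 28.2 ± 7.59 at day 3 and 32.9 ± 7.40 at day 5 of co-culture. Neither was called in any comparison. Their log2 fold changes at 5 days against monoculture were 0.64 (95% interval -0.25 to 1.53) and 0.45 (-0.18 to 1.07). Lss shares 381 exon bases with 4930483K19Rik on the other strand.

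Of the genes that encode SREBPs or govern their processing, Srebf1 fell at 3 days and the others were not called. Of Srebf1, Srebf2, Scap, Insig1 and Insig2, limma called 0 at 5 days against monoculture, 1 lower and 0 higher at 3 days against monoculture, and 0 between the days; edgeR and DESeq2 gave the same counts. At an unadjusted limma p under 0.05, 1 was higher and 1 lower at 5 days, 1 higher and 1 lower at 3 days, and 0 between the days. Srebf2 had 83.6, 77.4 and 93.8 in monoculture, 144.5, 123.2 and 100.2 at day 3 of co-culture and 112.3, 127.6 and 132.3 at day 5. Every co-culture library was above every monoculture, as in 20.8% (5 days) and 19.2% (3 days) of all tested genes, and the co-culture groups overlapped. Set against monoculture, the 5-day log2 fold change of Srebf2 was 0.54 (95% interval 0.13 to 0.96, limma adjusted p = 0.0553), and the 3-day value was 0.51 (0.10 to 0.93, limma adjusted p = 0.0777). Srebf1 had 275.4, 228.3 and 266.1 in monoculture, 181.0, 158.7 and 122.4 at day 3 of co-culture and 172.5, 129.5 and 238.5 at day 5. The 3-day libraries were all below the monocultures, and 5-day replicate 3 lay within the monoculture range. Srebf1 fell at 3 days (log2 fold change -0.75, SE 0.22, limma adjusted p = 0.027), a call lost without monoculture replicate 1 or 3 or 3-day co-culture replicate 2 or 3 (adjusted p = 0.0614 to 0.104). At 5 days its log2 fold change against monoculture was -0.55 (95% interval -1.02 to -0.07, limma adjusted p = 0.0902). Srebf1 (chr11:60199089-60222581, minus strand) shares 109 exon bases with Rai1 on the other strand, and Rai1 was not called in any comparison.

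Scap, the escort protein gene, had 351.5, 312.0 and 445.4 in monoculture, 362.0, 426.7 and 461.9 at day 3 of co-culture and 293.8, 368.8 and 333.3 at day 5. Its groups overlapped in all 3 comparisons. Insig2 had 59.4, 65.4 and 47.6 in monoculture, 23.2, 50.8 and 55.7 at day 3 of co-culture and 45.8, 51.2 and 59.9 at day 5, also with overlapping groups. Insig1, which SREBP2 itself raises in many cells, had 14.2, 3.4 and 7.7 in monoculture, 5.0, 4.9 and 0.0 at day 3 of co-culture and 9.0, 2.8 and 7.5 at day 5. These values rest on 23, 7 and 12 reads in the monocultures, 3, 7 and 0 at 3 days and 10, 3 and 6 at 5 days, so a difference was not detectable at this depth: the log2 fold change at 5 days against monoculture was -0.28 with a 95% interval of -1.73 to 1.16.

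Of the sterol transport genes, Abca1 fell and Stard4 was not called. Abca1, the pump that exports cholesterol to lipoproteins, had 32.2, 54.8 and 35.3 in monoculture, 5.0, 5.6 and 16.7 at day 3 of co-culture and 6.3, 14 and 12.5 at day 5. Every monoculture was above every co-culture library. Abca1 (chr4:53030787-53159895, minus strand) fell at 3 days (log2 fold change -2.20, SE 0.43, limma adjusted p = 0.00178) and at 5 days (log2 fold change -1.84, SE 0.43, limma adjusted p = 0.00526), and the difference between the days was 0.36 (95% interval -0.55 to 1.27). Stard4, a carrier of cholesterol between membranes, had means of 16.4 ± 8.57 alone, 23.7 ± 4.20 at day 3 and 22.0 ± 3.58 at day 5 of co-culture (SD, n = 3), with log2 fold changes of 0.61 at 3 days and 0.50 at 5 days against monoculture.

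The core genes of fatty acid synthesis mostly were not called. Of the 4, limma called 1 higher and 0 lower at 5 days against monoculture and 0 in the other comparisons, as did edgeR and DESeq2; at an unadjusted limma p under 0.05, 1 was lower at 3 days and 1 higher at 5 against 3 days. Acss2, which makes acetyl-CoA from acetate, had 5.6, 12.5 and 5.8 in monoculture, 10.0, 15.3 and 15.3 at day 3 of co-culture and 23.4, 23.3 and 17.5 at day 5. Values at 5 days lay above all others, and Acss2 rose at 5 days against monoculture (log2 fold change 1.39, SE 0.36, limma adjusted p = 0.0104). It shares exon bases with Ggt7 (197), Gss (395) and Acss2os (335), and Ggt7 and Gss were not called in any comparison. Acly, which makes acetyl-CoA from citrate, had means of 213 ± 34.1 alone, 150 ± 45.1 at day 3 and 227 ± 22.5 at day 5 of co-culture, Acaca, acetyl-CoA carboxylase, had 41.9 ± 7.46 alone, 46.8 ± 16.2 at day 3 and 50.3 ± 9.48 at day 5 of co-culture, and Fasn, fatty acid synthase, had 5.23 ± 1.19 alone, 3.03 ± 3.59 at day 3 and 4.23 ± 3.62 at day 5 of co-culture (SD, n = 3). At 5 days against monoculture their log2 fold changes were 0.10 (95% interval -0.36 to 0.56), 0.26 (-0.33 to 0.84) and -0.45 (-1.90 to 1.01). Fasn rested on 9, 13 and 6 reads in monoculture, 0, 3 and 5 at 3 days and 2, 9 and 2 at 5 days, so its level was near the limit of counting.

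The genes that lengthen and desaturate fatty acids changed in both directions. Of 7, 5 were higher and 1 lower at 5 days against monoculture, 3 higher and 0 lower at 3 days against monoculture, and 2 higher and 0 lower at 5 against 3 days; at an unadjusted limma p under 0.05, 1 was lower in each of the latter comparisons, and edgeR and DESeq2 called 0 lower. Fads2 and Fads1 encode the front-end desaturases that make polyunsaturated fatty acids. Fads2 had 17.9, 17.8 and 18.6 in monoculture, 49.8, 45.2 and 36.2 at day 3 of co-culture and 109.6, 69.9 and 77.4 at day 5. Its 3 groups did not overlap, and the monocultures lay between 17.8 and 18.6. Fads2 (chr19:10062765-10101746, minus strand) rose at 3 days (log2 fold change 1.22, SE 0.25, limma adjusted p = 0.00218) and at 5 days (log2 fold change 2.16, SE 0.25, limma adjusted p = 8.46e-06, 4.45-fold) against monoculture. It also rose at 5 against 3 days (log2 fold change 0.94, SE 0.25, limma adjusted p = 0.0301), lost without 3-day co-culture replicate 2 or 3 or 5-day co-culture replicate 1 or 3 (adjusted p = 0.061 to 0.137). Fads1 had 416.5, 398.0 and 412.0 in monoculture, 827.0, 709.3 and 770.8 at day 3 of co-culture and 849.1, 900.6 and 593.0 at day 5. All co-culture libraries were above the monocultures, and 5-day replicate 3 was the lowest of them. Fads1 (chr19:10182888-10196877, plus strand) rose at 3 days (log2 fold change 0.91, SE 0.18, limma adjusted p = 0.00194) and at 5 days (log2 fold change 0.91, SE 0.18, limma adjusted p = 0.00153), with a difference between the days of 0.00 (95% interval -0.38 to 0.38).

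Fads3, a related desaturase, is the neighbour of Fads2. It was not called, with means of 67.8 ± 22.4 alone, 52.2 ± 15.7 at day 3 and 50.4 ± 10.2 at day 5 of co-culture (SD, n = 3). Its log2 fold change at 5 days against monoculture was -0.39 (95% interval -1 to 0.21). Fads3 (chr19:10041569-10060110, plus strand) lies 2654 bases from Fads2, and Fads2 lies 81141 bases from Fads1, with 0 protein-coding genes in either gap. Difference tests between the neighbours were not run.

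Scd1 and Scd2 are stearoyl-CoA desaturases, which make monounsaturated fatty acids, and lie 87590 bases apart on chromosome 19 with 1 protein-coding gene between them. Scd2 had 780.4, 986.8 and 888.9 in monoculture, 743.9, 543.7 and 631.6 at day 3 of co-culture and 1493.3, 2173.8 and 1490.6 at day 5. The 5-day libraries were above and the 3-day libraries below all monocultures. Scd2 rose at 5 days against monoculture (log2 fold change 0.94, SE 0.19, limma adjusted p = 0.00209) and against 3 days (log2 fold change 1.41, SE 0.19, limma adjusted p = 0.000357), and at 3 days against monoculture its log2 fold change was -0.47 (95% interval -0.88 to -0.06, limma adjusted p = 0.0978). Scd1 had 104.0, 101.9 and 141.4 in monoculture, 199.3, 222.1 and 228.2 at day 3 of co-culture and 308.2, 342.7 and 239.7 at day 5. Its 3 groups did not overlap, and the 3-day libraries lay between the others. Scd1 rose at 3 days (log2 fold change 0.91, SE 0.20, limma adjusted p = 0.00337) and at 5 days (log2 fold change 1.35, SE 0.20, limma adjusted p = 9.14e-05) against monoculture, and its log2 difference between the days was 0.44 (limma adjusted p = 0.194). Scd1 and Scd2 are paralogs, so reads that fit both could have been split or lost in the authors' counting.

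The elongases Elovl6 and Elovl5 were called in opposite directions. Elovl6, which lengthens saturated and monounsaturated fatty acids, had 20.4, 15.4 and 26.4 in monoculture, 26.6, 35.5 and 40.3 at day 3 of co-culture and 47.6, 48.4 and 36.2 at day 5. The co-culture libraries were all above the monocultures, with 3-day replicate 1 close to the highest of them. Elovl6 rose at 5 days (log2 fold change 1.07, SE 0.28, limma adjusted p = 0.00989), lost without monoculture replicate 2 (adjusted p = 0.0519), and its log2 fold change at 3 days was 0.70 (limma adjusted p = 0.0856). Elovl6 shares 34 exon bases with Gm35986 on the other strand. Elovl5, which lengthens polyunsaturated fatty acids, had 56.3, 77.9 and 87.4 in monoculture, 64.8, 53.6 and 58.4 at day 3 of co-culture and 42.2, 41.0 and 28.7 at day 5. Its 5-day libraries were below all others, and the 3-day group overlapped the monocultures. Elovl5 (chr9:77917364-77984519, plus strand) fell at 5 days against monoculture (log2 fold change -0.96, SE 0.24, limma adjusted p = 0.00806), and its log2 difference between the days was -0.66 (limma adjusted p = 0.109). Lpin1, a phosphatidate phosphatase of glycerolipid synthesis, had 31.6, 27.9 and 35.3 in monoculture, 24.9, 29.2 and 22.3 at day 3 of co-culture and 52.1, 49.4 and 38.7 at day 5. Each 5-day library exceeded all others. Lpin1 rose at 5 against 3 days (log2 fold change 0.85, SE 0.25, limma adjusted p = 0.0485), a call lost without 3-day co-culture replicate 1, 2 or 3 or 5-day co-culture replicate 1, 2 or 3 (adjusted p = 0.0542 to 0.149) and with no filter on low values (adjusted p = 0.0565), edgeR (adjusted p = 0.058) and DESeq2 (adjusted p = 0.0895).

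**Figure D4:**
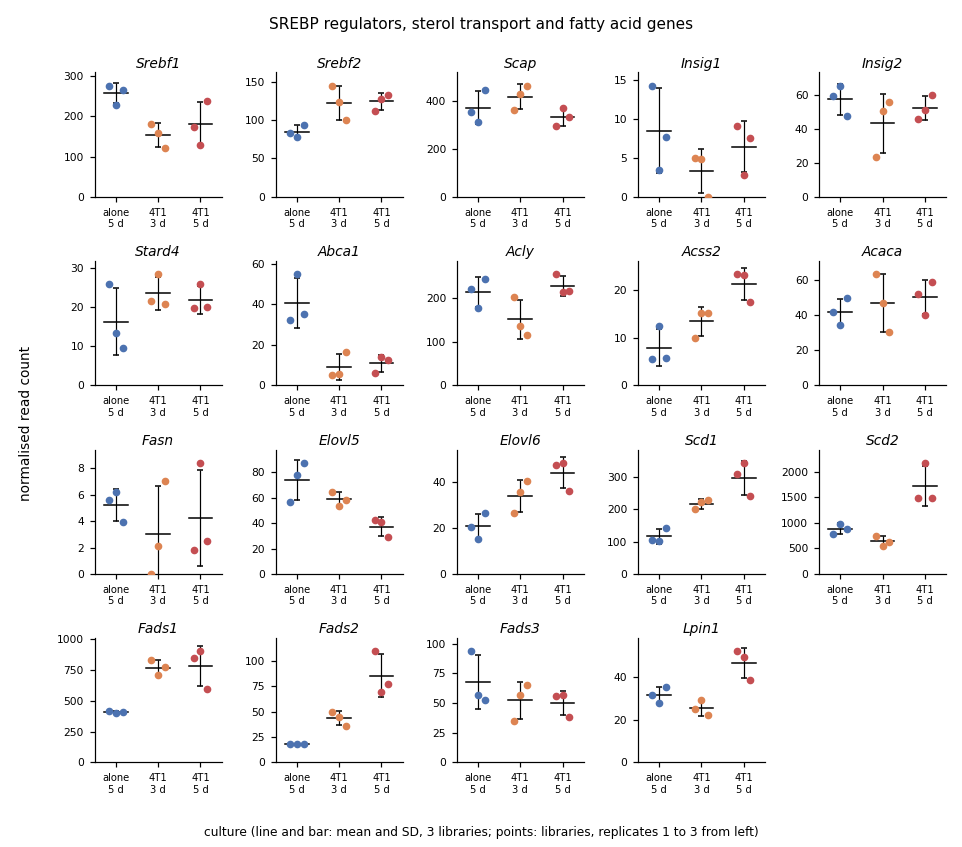
Each panel gives the normalised read count of 1 of 19 genes (SREBP regulators, sterol transport, fatty acid synthesis, elongation and desaturation, and Lpin1) in the 9 libraries (points), with mean (line) and SD (bar to each side of the mean, cut off at 0) of the 3 libraries, for monoculture (blue), 3 days (orange) and 5 days (red) of co-culture. Fads2 separates into 3 groups, with 17.8 to 18.6 in monoculture, and Abca1 is at most 16.7 in every co-culture library.

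Taking the groups without overlap, 21 of the 35 genes had every 5-day library above every monoculture and 2 had every one below, beside 20.8% and 20.1% of all tested genes. At 3 days against monoculture 8 of the 35 were above and 5 below, which is close to the 19.2% and 18.1% of all tested genes. At 5 against 3 days 19 were above and 1 was below, beside 11.7% and 12.9%. The 5 genes below at 3 days were Hmgcs1, Mvk, Srebf1, Abca1 and Scd2, and the 1 below between the days was Elovl5. In monoculture the 16 mevalonate and sterol genes summed to 977.6, 1030.5 and 1141.7 from lowest to highest, at 3 days to 1177.3, 1316.2 and 1335.0, and at 5 days to 2255.9, 2460.8 and 2565.0. The 7 elongation and desaturation genes summed to 1489.0, 1627.4 and 1655.0, then 1665.8, 1830.9 and 1946.3, then 2504.3, 2905.7 and 3633.2. These sums are dominated by the higher genes, Fdps and Scd2 among them.

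Other genes related to these pathways were described from further lists. Tmem97, a sterol-binding membrane protein, rose at 5 days against monoculture (log2 fold change 0.76, SE 0.23, limma adjusted p = 0.0232), lost without monoculture replicate 1 or 5-day co-culture replicate 1, 2 or 3 (adjusted p = 0.0549 to 0.108). Of 8 tested genes for SREBP cleavage and protein turnover, limma called 0 at 5 days against monoculture, 2 lower and 0 higher at 3 days, and 0 between the days, as did edgeR and DESeq2. The 2 lower at 3 days were 25.0% of these genes, beside 9.37% of all tested genes. At an unadjusted limma p under 0.05, 1 was higher at 5 days, 1 higher and 2 lower at 3 days, and 2 higher and 1 lower between the days. The falls at 3 days were Mbtps1, the site-1 protease (log2 fold change -0.68, SE 0.16, limma adjusted p = 0.00726), and Erlin2, a membrane protein in INSIG turnover (log2 fold change -0.66, SE 0.22, limma adjusted p = 0.0426), the latter lost without monoculture replicate 1, 2 or 3 or 3-day co-culture replicate 1, 2 or 3 (adjusted p = 0.053 to 0.147).

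Of 13 tested genes of LXR, cholesterol efflux, storage and oxysterols, 1 was higher and 4 lower at 5 days against monoculture, 2 higher and 4 lower at 3 days, and 0 higher and 3 lower at 5 against 3 days. The shares higher were 7.69%, 15.4% and 0%, beside 12.6%, 10.6% and 3.20% of all tested genes. The shares lower were 30.8%, 30.8% and 23.1%, beside 11.4%, 9.37% and 3.71%. At an unadjusted limma p under 0.05, 0 were higher and 4 lower between the days, and edgeR and DESeq2 called 0 higher and 3 lower. Nr1h3, which encodes LXR alpha, had 35.3, 16.8 and 16.7 in monoculture, 3.3, 4.2 and 1.4 at day 3 of co-culture and 0.9, 3.7 and 2.5 at day 5, on 57, 35 and 26 reads in the monocultures and 1 to 6 reads in each co-culture library. Every monoculture was above every co-culture library, and Nr1h3 fell at 3 days (log2 fold change -2.58, SE 0.50, limma adjusted p = 0.00164) and at 5 days (log2 fold change -2.84, SE 0.50, limma adjusted p = 0.000565). Mylip, an LXR target gene that encodes a ubiquitin ligase, had 66.2, 44.2 and 23.8 in monoculture, 11.6, 12.5 and 11.1 at day 3 of co-culture and 14.4, 15.8 and 18.7 at day 5. It fell at 3 days (log2 fold change -1.73, SE 0.34, limma adjusted p = 0.00184) and at 5 days (log2 fold change -1.30, SE 0.34, limma adjusted p = 0.0109), the latter lost without monoculture replicate 1 (adjusted p = 0.076).

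Fabp4, the only adipocyte marker present, was also lower in both co-culture groups, and the leukocyte marker sums of the 3 groups overlapped. Csf1r, a macrophage receptor, was 16.1 to 17.9 in monoculture, 14.9 to 25.0 at 3 days and 3.7 to 9.3 at 5 days, and fell at 5 days against monoculture (log2 fold change -1.36, limma adjusted p = 0.0116) and against 3 days (-1.48, limma adjusted p = 0.0215). At 3 days against monoculture the log2 fold change of Csf1r was 0.12 (limma adjusted p = 0.85). Cd68 and Lyz2, the other leukocyte markers present, were not called in any comparison. Against monoculture, Cd68 had log2 fold changes of 0.86 at 3 days and 0.43 at 5 days, and Lyz2 had 0.86 and -0.34. The part of these markers in the falls of the LXR and efflux genes was not tested. Apoe, the apolipoprotein of cholesterol export, had 836.8, 1044.5 and 564.3 in monoculture, 86.4, 137.1 and 176.7 at day 3 of co-culture and 48.5, 68.0 and 46.2 at day 5. Its 3 groups did not overlap. Apoe fell at 3 days (log2 fold change -2.62, SE 0.27, limma adjusted p = 5.09e-06), at 5 days (log2 fold change -3.86, SE 0.27, limma adjusted p = 5.19e-08) and between the days (log2 fold change -1.25, SE 0.27, limma adjusted p = 0.0108), the last lost without 3-day co-culture replicate 2 or 5-day co-culture replicate 3 (adjusted p = 0.0568 to 0.0587). Cyp7b1, an oxysterol hydroxylase, had 64.4, 160.1 and 81.0 in monoculture, 18.3, 35.5 and 29.2 at day 3 of co-culture and 9.9, 8.4 and 7.5 at day 5. Its groups did not overlap either, and it fell at 3 days (log2 fold change -1.78, SE 0.34, limma adjusted p = 0.00151), at 5 days (log2 fold change -3.32, SE 0.34, limma adjusted p = 2.77e-06) and between the days (log2 fold change -1.54, SE 0.34, limma adjusted p = 0.0123), the last lost without 3-day co-culture replicate 2 or 5-day co-culture replicate 3 (adjusted p = 0.052 to 0.076). Ch25h, the hydroxylase that makes an oxysterol known to hold back SREBP processing, had 139.3, 166.8 and 250.7 in monoculture, 511.5, 639.7 and 964.2 at day 3 of co-culture and 119.5, 254.3 and 258.4 at day 5. The 3-day libraries were above all others. Ch25h rose at 3 days against monoculture (log2 fold change 1.91, SE 0.30, limma adjusted p = 0.000288) and fell from 3 to 5 days (log2 fold change -1.77, SE 0.30, limma adjusted p = 0.00234), and its log2 fold change at 5 days against monoculture was 0.14 (95% interval -0.50 to 0.78). Scarb1, a receptor for high-density lipoprotein, had 55.7, 36.1 and 50.1 in monoculture, 147.8, 114.9 and 147.5 at day 3 of co-culture and 123.1, 89.4 and 108.6 at day 5. It rose at 3 days (log2 fold change 1.53, SE 0.22, limma adjusted p = 0.000137) and at 5 days (log2 fold change 1.17, SE 0.22, limma adjusted p = 0.00103).

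**Figure D5:**
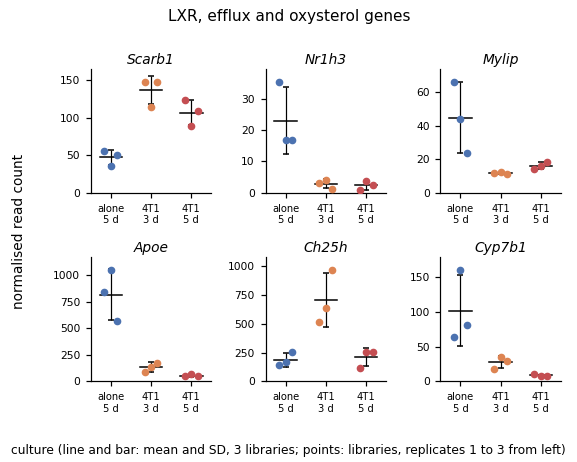
Each panel gives the normalised read count of 1 of 6 LXR, efflux and oxysterol genes in the 9 libraries (points), with mean (line) and SD (bar) of the 3 libraries, for monoculture (blue), 3 days (orange) and 5 days (red) of co-culture. Scarb1 is at most 55.7 in monoculture and at least 89.4 in co-culture, Ch25h is highest at 3 days (511.5 to 964.2), and Apoe, Nr1h3 and Cyp7b1 are lower in both co-culture groups.

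Of 18 tested genes of other fatty acid synthesis and activation, 6 were higher and 1 lower at 5 days against monoculture, 5 higher and 1 lower at 3 days, and 2 higher and 0 lower at 5 against 3 days. The shares higher were 33.3%, 27.8% and 11.1%, beside 12.6%, 10.6% and 3.20% of all tested genes. The shares lower were 5.56%, 5.56% and 0%, beside 11.4%, 9.37% and 3.71%. At an unadjusted limma p under 0.05, 1 was lower between the days, and edgeR and DESeq2 called 0 lower. The acyl-CoA synthetases Acsl3 and Acsl4, which activate fatty acids, had log2 fold changes of 1.66 (limma adjusted p = 0.00436) and 1.83 (limma adjusted p = 0.0018) at 5 days against monoculture. Acsl4 also rose at 3 days against monoculture (1.54, limma adjusted p = 0.00724). Acsl3 rose at 5 against 3 days (log2 fold change 1.68, SE 0.38, limma adjusted p = 0.0143), lost without 3-day co-culture replicate 1 or 2 or 5-day co-culture replicate 2 or 3 (adjusted p = 0.052 to 0.0753). Hsd17b12, a reductase of fatty acid elongation, rose at 3 days (0.71, limma adjusted p = 0.0121), lost without 3-day co-culture replicate 2 (adjusted p = 0.0737), and at 5 days (1.25, limma adjusted p = 0.000121). Hacd2, a dehydratase of the same cycle, fell at 3 days against monoculture (-1.77, limma adjusted p = 0.0192), lost without monoculture replicate 2 or 3 or 3-day co-culture replicate 2 (adjusted p = 0.0502 to 0.0842), and rose from 3 to 5 days (1.82, limma adjusted p = 0.0384), lost without 3-day co-culture replicate 2 or 3 or 5-day co-culture replicate 1, 2 or 3 (adjusted p = 0.051 to 0.15) and with DESeq2 (adjusted p = 0.0748), which called 1 gene of the list higher in that comparison. Hacd2 rests on 11, 21 and 11 reads in monoculture, 2, 1 and 1 at 3 days and 6, 7 and 12 at 5 days.

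Lpin3, another lipin phosphatase, rose at 3 days (1.15, limma adjusted p = 0.00163) and at 5 days (1.33, limma adjusted p = 0.000353) against monoculture. Mid1ip1, which promotes acetyl-CoA carboxylase assembly, rose at 3 days (1.01, limma adjusted p = 0.00163) and at 5 days (0.70, limma adjusted p = 0.0155), the latter lost without monoculture replicate 2 or 5-day co-culture replicate 3 (adjusted p = 0.0602 to 0.0852). Slc25a1, the citrate carrier, rose at 5 days against monoculture (0.70, limma adjusted p = 0.0284), lost without monoculture replicate 3 or 5-day co-culture replicate 1 or 3 (adjusted p = 0.0929 to 0.115). Mlycd, which breaks down malonyl-CoA, rose at 3 days against monoculture (0.72, limma adjusted p = 0.0293), lost without monoculture replicate 2 or 3 or 3-day co-culture replicate 2 or 3 (adjusted p = 0.0543 to 0.0963). Agpat2, an acyltransferase of glycerolipid synthesis, fell at 5 days against monoculture (-1.09, limma adjusted p = 0.00326).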

How the data were processed

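The 9 libraries are 3′ end mRNA libraries made from total RNA. Per the submitters' processing notes, the tools were bcl2fastq, STAR 2.4.2a and HTSeq, with build mm10; the annotation, strand setting, gene filter and method of the library factors are not given in the sources used here. The values deposited by the authors are normalised counts (a count-like signal): per library, reads per gene divided by 1 factor. Low values step by the worth of 1 read (0.481 to 1.66 units), so whole reads were recovered: within 0.051, 99.63% to 100.0% of the values of each library were whole. Reads carry no molecular identifiers, so counting limits cover counting error only. Columns were matched by name; 1 column does not mention 4T1 cells and was taken as 5-day co-culture replicate 2 since the names of the other 8 columns cover the remaining samples. The table had 18 names turned into dates and 1 gene at 0 in every library.

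Genes were tested with limma 3.58.1 under R 4.3.3 (lmFit, then eBayes with trend), two-sided, on log2(value + 1) of all 9 libraries with 1 mean per group, with Benjamini-Hochberg adjustment over 10639 genes and a threshold of 0.05; 1292 genes were not tested. Alternatives were pseudocounts of 0.5 and 5, no filter, median-of-ratios and TMM scaling, a replicate block, recovered reads tested with edgeR 4.0.16 (quasi-likelihood) and DESeq2 1.42.0, and dropping each library in turn. The scripts were tested on simulated data. The genes, the lists and the tests were chosen with earlier results of these data known. Every listed gene is named; genes called in any comparison and the SREBP regulators have all their values given, other pathway genes are named where called, with the exception given below, and the 3 most abundant markers of a list are named. Promoters of the genes with the 2 largest and 2 smallest fold changes called at 5 days against monoculture were taken. Gene positions (35 of 35 matched by symbol) come from GENCODE M21, mm10, and promoters from RefSeq on GRCm38.p6. Fdft1 and Idi1 are not analysed here. The list of other sterol synthesis and uptake genes holds called genes that are not reported here, so its counts are not given and Tmem97 is its only gene named.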

Additional observations from a re-analysis of the deposited data

How the results depend on the processing

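Under the alternatives that keep every library, the sterol and fatty acid genes called at 5 days against monoculture numbered 18 to 19 higher and 2 lower, at 3 days 5 higher and 2 lower, and at 5 against 3 days 11 to 13 higher and 0 lower. Leaving out 1 library gave 15 to 17 higher and 2 to 3 lower at 5 days against monoculture, 4 to 7 higher and 1 to 3 lower at 3 days, and 5 to 10 higher at 5 against 3 days; over all genes the last comparison gave 144 to 328 higher and 179 to 365 lower. The cause was not tested; 1 group then has 2 samples. At 5 days against monoculture, same-numbered deviations had correlations of 0.14, 0.233 and 0.041, beside -0.19 to 0.048 for different numbers. At 3 days they were 0.125, -0.114 and 0.049, beside -0.298 to 0.283. Between the days they were 0.175, -0.112 and -0.063, beside -0.259 to 0.323. These values do not settle whether replicate numbers pair the samples, and the main fit used no pairing. With the replicate block, 18 genes were higher and 2 lower, 5 and 2, and 12 and 0; Lpin1 between the days (adjusted p = 0.0583) and Erlin2 at 3 days lost their calls. Of 2226 values of named genes, 2067 kept direction and side of the threshold, 99 lost and 15 gained a call, and 45 changed sign, 0 of them called. Depth limits Insig1, Fasn, Lss, Nr1h3 and Hacd2, which rest on few reads. Other called genes had few reads too, among them Abca1 (3, 8 and 12 at 3 days), Cyp51 (5, 18 and 12) and Acss2 (6, 22 and 11). No scaling moved the median of all genes by over 0.1.

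Only log2 fold changes that were not called changed sign, among the named genes. At 5 days against monoculture Erlin2 (-0.002) was 0.011 with edgeR and 0.016 with DESeq2. Leaving out 1 library, the ranges at 5 days against monoculture were Insig1 from -0.745 to 0.149, Acly from -0.031 to 0.201, Ch25h from -0.045 to 0.508, Erlin2 from -0.142 to 0.174 and Hacd2 from -0.359 to 0.302. The ranges at 3 days against monoculture were Sqle from -0.084 to 0.257, Nsdhl from -0.206 to 0.163, Ebp from -0.205 to 0.105, Acaca from -0.13 to 0.38 and Acsl3 from -0.376 to 0.24. Others there were Slc25a1 from -0.048 to 0.385. The ranges between the days were Sc5d from -0.114 to 0.162, Dhcr7 from -0.009 to 0.36, Srebf1 from -0.025 to 0.413, Srebf2 from -0.108 to 0.154 and Insig2 from -0.032 to 0.582. Others there were Stard4 from -0.226 to 0.035, Acaca from -0.125 to 0.385, Fasn from -0.141 to 1.359, Fads1 from -0.113 to 0.188 and Fads3 from -0.285 to 0.159. Others there were Acsl4 from -0.211 to 0.631 and Nr1h3 from -0.586 to 0.105.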
